A study of Mus musculus with 14 samples.

Results

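S100a8 and S100a9 encode the 2 subunits of calprotectin, and they were described across 13 RNA sequencing libraries of mice with experimental autoimmune encephalomyelitis (EAE), in which T cells primed against myelin attack it and which serves as a multiple sclerosis model, and of naive mice. They are 2 of the 40840 genes in the deposited count table. Both were chosen by measured values of this same table, namely by the contrast of EAE with naive libraries, so every value of theirs against naive is given as a description without a test. Per the labels, the samples came from eyes of female mice aged 7 to 8 weeks and are called retinal ganglion cell neurons, and total RNA was read. The EAE libraries were 4 taken before symptoms (called pre), 4 taken at symptom onset and 1 taken at the peak of disease, and the reference was 4 libraries of naive control mice. A second peak sample was not analysed here. The strain, the immunisation and any sort or gate of the cells are not given in the sources used here, and the labels do not say whether replicates were separate animals, so p-values measure only the spread between these samples.

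Calprotectin is a calcium-binding heterodimer of S100A8 and S100A9 that makes up a large part of the cytosolic protein of neutrophils and is also made by monocytes and early macrophages. Released from these cells it withholds zinc and manganese from microbes, and it is known as an alarmin that can signal through the receptors TLR4 and RAGE. Its protein level in stool and blood is in clinical use as a marker of inflammation in which neutrophils take part.

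The label was checked against markers, and ganglion cell genes were read in every library beside genes of other retinal neurons. The 14 ganglion cell markers summed to between 824 and 1566 CPM (counts scaled to a common library total) in the EAE libraries and to between 979 and 1423 CPM in the naive libraries. The 9 amacrine cell markers summed to between 5966 and 7580 CPM in EAE and to between 5604 and 7882 CPM in naive. The 14 rod photoreceptor markers, a sign of other retinal cells in the sample, ran from 376 to 7791 CPM in EAE and from 288 to 6417 CPM in naive. The libraries held between 2596705 and 7641214 counts in genes. In a single library 3 counts, taken as the smallest number told apart from 0, equal 0.376 to 1.13 CPM.

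The promoters of both genes are shown because the members moved together across libraries and lie side by side on chromosome 3, on opposite strands. The sequences are from RefSeq on mouse assembly GRCm38.p6, from 250 bases before to 50 bases after the annotated start, 5′ to 3′ on the gene's own strand. S100a8 is at chr3:90668821-90669120 on the plus strand and S100a9 at chr3:90695672-90695971 on the minus strand. Capitals mark matches to TATAAA (the TATA box), searched on the gene's own strand. They also mark TTNNGNAA (paired half-sites of C/EBP, a family of myeloid transcription factors), searched on both strands.
S100a8: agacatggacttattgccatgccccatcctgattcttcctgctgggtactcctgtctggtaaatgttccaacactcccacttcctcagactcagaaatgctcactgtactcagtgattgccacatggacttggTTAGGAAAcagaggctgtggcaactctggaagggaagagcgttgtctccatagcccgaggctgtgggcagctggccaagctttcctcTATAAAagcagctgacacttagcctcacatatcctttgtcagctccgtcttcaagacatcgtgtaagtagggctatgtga
S100a9: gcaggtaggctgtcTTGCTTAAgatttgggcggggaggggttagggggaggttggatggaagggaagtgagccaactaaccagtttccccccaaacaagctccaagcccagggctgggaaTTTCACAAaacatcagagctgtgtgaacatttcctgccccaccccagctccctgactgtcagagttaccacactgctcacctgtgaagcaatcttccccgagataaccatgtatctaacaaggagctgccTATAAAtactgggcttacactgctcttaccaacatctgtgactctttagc

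Both promoters held 1 TATAAA. In S100a8 it began 30 bases before the annotated start, inside the window of 40 to 20 bases before the start in which 1.91% of all 32851 RefSeq promoters of the same length held it. In S100a9 it began at the first base of the annotated transcript. Anywhere in the window, 8.32% of those promoters held a TATAAA. The C/EBP pattern matched 1 time in S100a8 and 2 times in S100a9, without overlap between these and the TATA box, and 40.7% of all promoters held at least 1 match. GAGGAA, the core bound by the myeloid factor PU.1, matched 2 times in S100a8 and 0 times in S100a9, against a share of 28.3% of all promoters, and 1 of the S100a8 matches, on the other strand, ended at the base before the TATA box. Patterns of STAT (TTCNNNGAA), NF-kB and AP-1 (TGANTCA) had 0 matches in both windows, where 8.3%, 4.79% and 7.81% of all promoters held them. These motifs were chosen with the sequences in view, and a match is a description of letters.

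S100a9 had 0 counts in each of the 4 naive libraries, 45, 120, 23 and 68 counts in pre libraries 1 to 4, 81, 18, 151 and 118 counts in onset libraries 1 to 4, and 118 counts in the peak library. S100a8 had 0 counts in each naive library, 12, 59, 9 and 26 counts in the pre libraries, 32, 4, 85 and 59 counts in the onset libraries, and 57 counts in the peak library. Both subunits were thus read in 9 of 9 EAE libraries and in 0 of 4 naive libraries. This presence and absence is the pattern on which the genes were selected.

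On the CPM scale, S100a9 was at 9.05, 19.7, 8.01 and 17.1 CPM in pre libraries 1 to 4, at 30.6, 4.36, 39.3 and 18.3 CPM in onset libraries 1 to 4, and at 14.8 CPM at the peak. S100a8 was at 2.41, 9.68, 3.14 and 6.53 CPM in the pre libraries, at 12.1, 0.968, 22.1 and 9.16 CPM in the onset libraries, and at 7.14 CPM at the peak. Onset held both the highest library (onset 3) and the lowest EAE library (onset 2) for each subunit. The highest onset library exceeded the lowest 9.01-fold for S100a9 and 22.8-fold for S100a8, where the pre libraries spanned 2.46-fold and 4.01-fold. Reading fewer cells that carry a transcript and reading less of it per cell cannot be told apart in such bulk libraries.

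**Figure D1:**
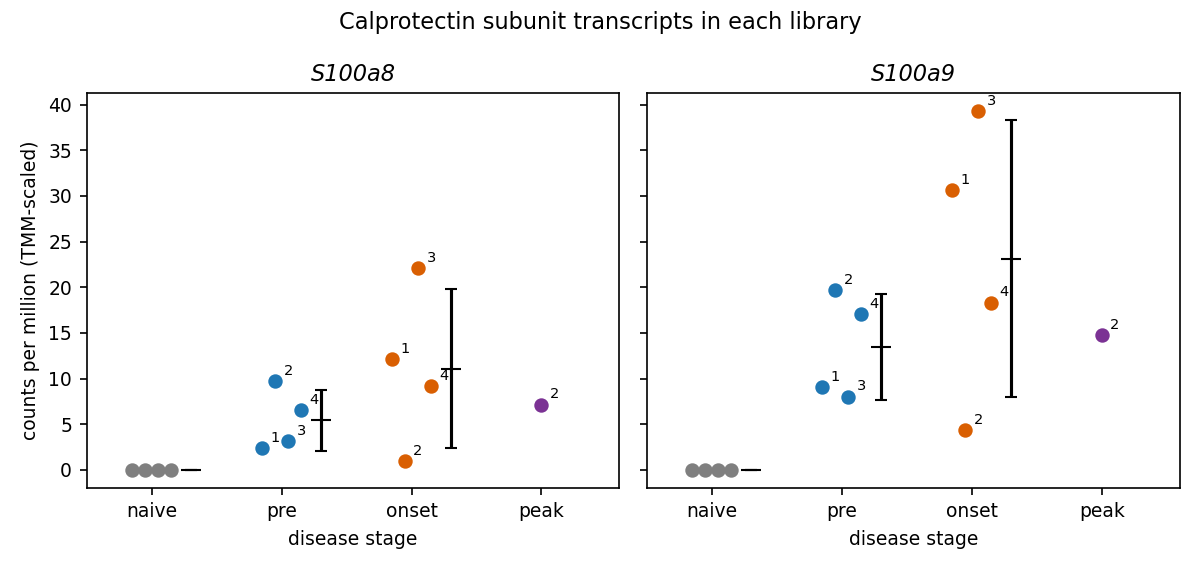
S100a8 (left) and S100a9 (right) in TMM-scaled CPM on the y axis, by disease stage on the x axis; points are libraries, numbered by replicate, and the bar beside each group of 4 is its mean ± SD. All 4 naive libraries sit at 0, and onset libraries range from 0.968 to 22.1 CPM for S100a8 and from 4.36 to 39.3 CPM for S100a9.

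Because naive held no count, a fold against it is a lower bound, set against 3 counts over the whole naive group, which equal 0.169 CPM. S100a9 averaged 13.5 ± 5.80 CPM in pre and 23.1 ± 15.2 CPM at onset (SD, n = 4 each), which is at least 79.8-fold and at least 137-fold higher than naive. S100a8 averaged 5.44 ± 3.35 CPM in pre and 11.1 ± 8.72 CPM at onset (SD, n = 4 each), at least 32.3-fold and at least 65.7-fold higher than naive. The lone peak library was at least 87.7-fold higher than naive for S100a9 and at least 42.4-fold higher for S100a8. Even the lowest EAE library, onset 2, stood at least 25.8-fold above naive for S100a9 and at least 5.74-fold above it for S100a8. These floors, like the counting intervals given for shares, take no account of amplification. No molecular identifiers are given in the sources used here, and reads may repeat a molecule.

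How uncommon this pattern was can be read from the whole table. Of 40840 genes, 17939 had 0 counts in all naive libraries, and 2731 (6.69% of all genes) had 0 counts there and a count in at least 1 EAE library. In 5 of these 2731 the count was above 0 in all 9 EAE libraries. They were S100a9 with 742 EAE counts, S100a8 with 343, Retnlg with 96, Slfn4 with 90 and Ifitm1 with 56. Retnlg encodes a resistin-like protein of neutrophils and marrow, Slfn4 a Schlafen protein of myeloid cells, and Ifitm1 an interferon-induced membrane protein. By summed EAE counts S100a9 and S100a8 ranked 1 and 2 among the genes without naive counts, ahead of Ngp with 226 counts in 6 libraries and Ltf with 161 counts in 7 libraries, which both encode proteins of neutrophil granules. Both subunits were chosen by this same contrast, so nothing is read from their ranks. With 4 naive and 9 EAE libraries, 0 counts in a whole group are also likelier in naive. Mean EAE levels of Retnlg were at least 14.1-fold higher than naive, those of Slfn4 at least 15.1-fold higher and those of Ifitm1 at least 8.28-fold higher. These 3 genes, like Cxcr2, Csf3r, S100a4, S100a6 and S100a11 further on, were picked after their values had been seen.

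S100a9 gave more reads than S100a8 in 9 of 9 EAE libraries. S100a8 made up 21.1%, 33.0%, 28.1% and 27.7% of the calprotectin counts in pre libraries 1 to 4, 28.3%, 18.2%, 36.0% and 33.3% in onset libraries 1 to 4, and 32.6% at the peak. The 95% exact Clopper-Pearson intervals were wide where counts were few, from 5.19% to 40.3% in onset 2 with 22 counts, and narrower in onset 3, from 29.9% to 42.5% with 236 counts. The intervals of 8 of the 9 libraries held the EAE mean of 28.7% ± 5.90 (SD, n = 9), and that of onset 3 began just above it.

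The mean share was 29.0% ± 7.86 at onset and 27.4% ± 4.89 in pre (SD, n = 4 each). The difference of 1.51 percentage points was within the spread between libraries (exact two-sided permutation test, p = 0.686, where 4 against 4 libraries allow no p below 0.0286). Leaving out onset 3 or pre 1 turned its sign, to -0.838 and -0.619 percentage points. Per kilobase of exon, S100a8 (694 bases) averaged 7.84 CPM per kb in the pre, 15.97 in the onset and 10.3 in the peak libraries, and S100a9 (522 bases) averaged 25.8, 44.3 and 28.3 CPM per kb. S100a8 thus held a mean of 23.3% of the length-scaled level over the EAE libraries, or 30.0% when the principal transcripts of 486 and 519 bases were used for length. The excess of S100a9 reads was therefore present on both length scales.

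**Figure D2:**
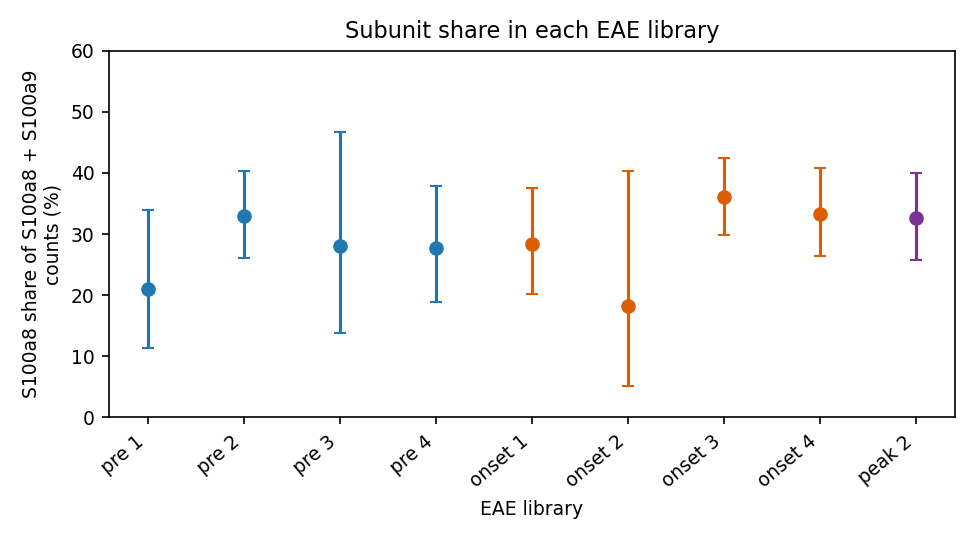
Share of S100a8 in the summed S100a8 and S100a9 counts, in percent (y axis), for each EAE library (x axis), with exact 95% Clopper-Pearson intervals as bars. Shares lie between 18.2% and 36.0%, no interval reaches above 46.7%, and the intervals are widest in onset 2 and pre 3.

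Onset against pre was the stage comparison that used no naive library. Neither subunit passed it. S100a9 had a log2 fold change of 0.75 ± 0.59 (SE; 95% interval -0.62 to 2.12) and an adjusted p of 0.835 in edgeR's quasi-likelihood test with Benjamini-Hochberg adjustment over all 14893 genes. S100a8 had 0.98 ± 0.76 (SE; -0.74 to 2.71) with an adjusted p of 0.823 in the same edgeR test. The onset and pre libraries overlapped for both genes, since onset 2 lay below every pre library and onset 1 and 3 above every pre library. An exact two-sided permutation test of log2 CPM gave a difference of 0.49 with p = 0.571 for S100a9 and of 0.58 with p = 0.629 for S100a8. A doubling and a fall at onset are both inside these intervals.

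The size of this difference changed with single libraries and with the rod index. Without onset 3 the log2 fold change was 0.35 for S100a9 and 0.38 for S100a8, and without onset 2 it was 1.10 and 1.37. The rod photoreceptor list was higher at onset than in pre in 14 of 14 tested members (52.8% of all 14893 genes had a log2 fold change above 0), with a median log2 fold change of 0.97. Mueller glia genes were higher at onset in 10 of 10 tested members, with a median of 0.77. Ganglion cell genes were lower at onset in 11 of 13 tested members, with a median of -1.07. None of these members passed the edgeR test. When the mean log2 CPM of the rod list (the rod index) was added to the fit as a covariate, the log2 fold change of onset over pre was 0.25 for S100a9 and 0.34 for S100a8. edgeR called 0 of 14893 genes (0%) in onset over pre, 1015 genes had an unadjusted p under 0.05, and DESeq2 called 23.

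Against naive, edgeR called 0 of 14893 genes (0%) in pre and 0 of 14893 (0%) at onset, with 832 and 888 genes at an unadjusted p under 0.05 and 6 and 16 genes called by DESeq2. With the 9 EAE libraries pooled against 4 naive, edgeR called 0 of 13639 genes (0%), 870 had an unadjusted p under 0.05 and DESeq2 called 4. S100a8 and S100a9 are among those 4, and since this contrast chose them nothing is read from that. In this pooled comparison 21 genes (0.154%) had every EAE library above every naive library, 49.5% of genes had a log2 fold change above 0, and the median of all genes was -0.0016. The comparisons with naive below use these same naive libraries, and no member of any gene list passed edgeR's test in them. A gene low in naive could pass the count filter only through EAE libraries where it was high. Directions over tested members, and any call of such a gene against naive, are therefore favoured by the filter. They are given as description only.

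None of the genes beside S100a8 and S100a9 had 0 counts in naive together with counts in EAE. S100a8 and S100a9 are next to each other in the RefSeq gene order of the S100 cluster. S100a7a, the next gene on the S100a8 side, had 2 counts over the EAE libraries and 2 over the naive libraries. S100a6 had 82 counts in EAE and 18 in naive, S100a5 had 2 and 2, and S100a4 had 43 and 19. Here and below, counts given for EAE and naive are raw sums over 9 and 4 libraries. Equal levels would thus give more counts in EAE. On the other side Pglyrp4 and Pglyrp3, which encode peptidoglycan recognition proteins, and S100a7l2 had 0 counts in all 13 libraries.

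S100a6, which encodes the calcium-binding protein calcyclin, was at 5.67 CPM in onset 1, 4.94 in onset 3 and 4.27 in pre 4, and at 0.492 to 2.09 CPM in the other 6 EAE libraries, against 0.756 to 1.44 CPM in naive. S100a4 was at 3.03 and 2.60 CPM in onset 1 and 3 and at 0.242 to 1.26 CPM in the other EAE libraries, against 0.786 to 1.44 CPM in naive. Onset 1 and onset 3, the libraries with the most S100a9, were thus also the libraries with the most S100a6 and S100a4, while the remaining EAE and naive values overlapped.

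**Figure D3:**
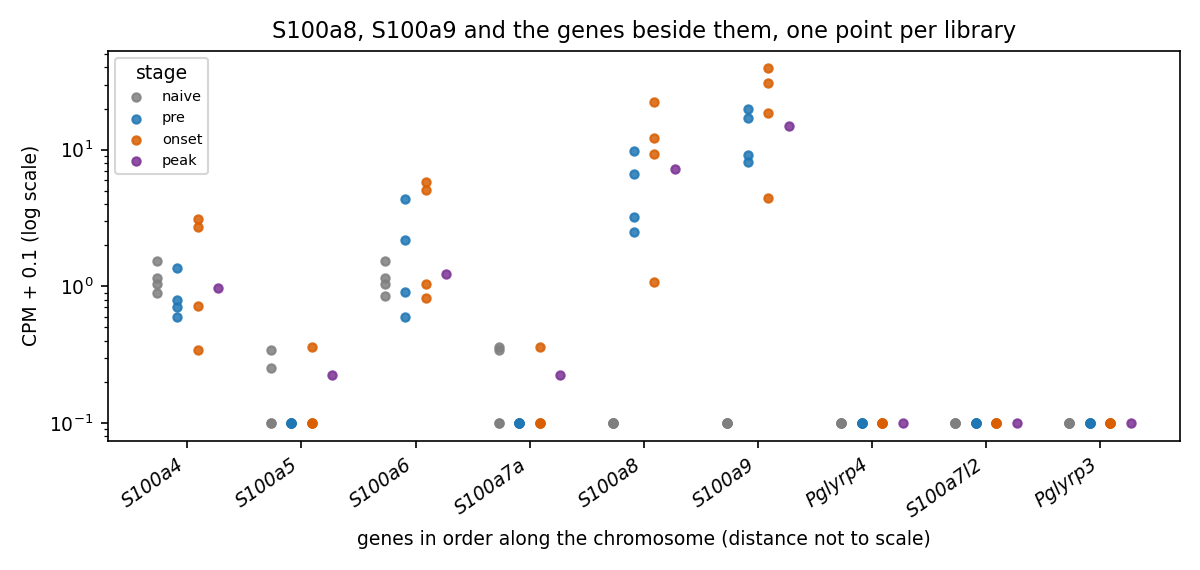
Level of S100a8, S100a9 and the genes beside them in each library, in CPM plus 0.1 on a log scale (y axis), with genes in their order along the chromosome, not to scale (x axis), and colours for stage; points at 0.1 are libraries with 0 counts. Only S100a8 and S100a9 among the genes drawn have naive libraries at 0 and every EAE library above 0, while S100a4 and S100a6 are read in all 13 libraries.

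Of the other 14 S100 genes listed, 3 had 0 counts in every library (S100a14, S100g and S100z) and 3 had enough counts for the pooled test. S100a1, a regulator of calcium handling, averaged 7.70 ± 4.03 CPM in EAE and 6.08 ± 0.541 CPM in naive (SD, n = 9 and 4), with a log2 fold change of 0.33 ± 0.35 (SE). S100a10, the partner of annexin A2, averaged 2.52 ± 2.28 CPM in EAE and 2.64 ± 2.13 CPM in naive, with -0.21 ± 0.70. S100a16 averaged 6.07 ± 5.50 CPM in EAE and 5.37 ± 1.78 CPM in naive, with 0.13 ± 0.61. None of the 3 passed the edgeR test (adjusted p from 0.887 to 0.991), and each changed sign under at least 1 alternative fit. S100a11, an annexin-binding S100 protein with too few counts for the pooled test, lay at 0.484 to 3.12 CPM in EAE and 0.239 to 1.31 CPM in naive, from 54 and 9 counts.

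Among the receptors tied to calprotectin, the largest difference was in the co-receptor. Cd14, which hands ligands to TLR4, was at 7.04, 6.24, 11.5 and 8.04 CPM in pre, at 5.67, 2.42, 23.7 and 3.42 CPM at onset and at 12.9 CPM at the peak, against 0, 1.05, 2.63 and 4.23 CPM in naive. Its EAE mean was 8.99 ± 6.46 CPM and its naive mean 1.98 ± 1.85 CPM (SD, n = 9 and 4), and its log2 fold change was 2.04 ± 0.68 (SE) with an adjusted p of 0.780 in edgeR. The EAE and naive libraries overlapped in onset 2 and onset 4. Cd33, a sialic acid receptor of myeloid cells, averaged 10.1 ± 5.99 CPM in EAE and 3.89 ± 2.42 CPM in naive, with a log2 fold change of 1.31 ± 0.52. Alcam, an adhesion molecule, averaged 87.8 ± 21.3 CPM in EAE and 107 ± 41.7 CPM in naive, with -0.27 ± 0.24.

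Tlr4 itself, the signalling receptor, had 59 counts in EAE and 15 in naive, at 1.39 ± 0.921 CPM and 0.727 ± 0.703 CPM, too few for the pooled test. Ager, which encodes RAGE, averaged 7.67 ± 2.78 CPM in EAE and 6.95 ± 2.51 CPM in naive. Bsg and Nptn, the widely expressed immunoglobulin-family receptors basigin and neuroplastin, averaged 401 ± 35.4 and 356 ± 28.1 CPM in EAE and 388 ± 11.8 and 352 ± 31.2 CPM in naive. Of the 10 listed receptors 7 were tested, 0 passed, and 6 were higher and 1 lower, with a median log2 fold change of 0.15 beside the -0.0016 of all genes. Receptors of calprotectin were thus read in both naive and EAE libraries, with the myeloid ones Cd14 and Cd33 furthest from 0.

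The relay from TLR4 to NF-kB had about as many members higher as lower. Of its 18 genes 15 were tested, 7 were higher and 8 lower in EAE, with a median log2 fold change of -0.03. Ikbkg, which encodes the NEMO subunit of the kinase that frees NF-kB, averaged 52.1 ± 5.13 CPM in EAE and 60.5 ± 6.60 CPM in naive (SD, n = 9 and 4), with a log2 fold change of -0.20 ± 0.09 (SE). Nfkbia, the inhibitor that NF-kB itself induces, averaged 24.3 ± 11.7 CPM in EAE and 16.4 ± 2.99 CPM in naive, with 0.56 ± 0.29. Tab1, an adaptor of the kinase TAK1, averaged 30.9 ± 5.48 CPM in EAE and 35.9 ± 2.90 CPM in naive, with -0.21 ± 0.12. None of the 15 passed the edgeR test (adjusted p of 0.780, 0.797 and 0.801 for the 3 named).

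Among genes known to induce S100a8 and S100a9 in myeloid cells most were higher in EAE, without a call. Of 16 listed, 12 were tested, 10 were higher and 2 lower in EAE, and the median log2 fold change was 0.58. Il1b, which encodes interleukin 1 beta, was at 2.41, 4.10, 7.32 and 6.03 CPM in pre, at 1.13, 0.968, 18.5 and 3.26 CPM at onset and at 3.51 CPM at the peak, against 0, 2.10, 0.479 and 0.605 CPM in naive. Its log2 fold change was 2.68 ± 0.88 (SE), and the groups overlapped because of naive 2. Tlr2, a receptor for bacterial lipoproteins, averaged 5.83 ± 3.30 CPM in EAE and 1.82 ± 1.23 CPM in naive, with 1.59 ± 0.50. Cebpa, a transcription factor of myeloid development, averaged 9.18 ± 4.89 CPM in EAE and 4.81 ± 2.18 CPM in naive, with 0.89 ± 0.39. All 3 had an adjusted p of 0.780 in edgeR. Cebpe and Il10 had 0 counts in every library, and Il6 had 1 count in EAE and 1 in naive.

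Chemoattractants of neutrophils were mostly below detection. Cxcl1, Cxcl3, Cxcl5 and Il17a and the endothelial selectins Selp and Sele had 0 counts in all 13 libraries, and Cxcl2 had 6 counts in EAE and 0 in naive. Only 3 of the 15 had enough counts for the pooled test, and none passed it in edgeR. C5ar1, the receptor of complement fragment C5a, averaged 2.59 ± 1.52 CPM in EAE and 0.516 ± 0.677 CPM in naive (SD, n = 9 and 4), with 2.01 ± 0.67 (SE). Ccl3, a chemokine of macrophages and microglia, averaged 10.5 ± 11.1 CPM in EAE and 3.06 ± 1.75 CPM in naive, with 1.72 ± 0.68, and passed only with the rod index added (adjusted p of 0.0447 in edgeR, against 0.449 to 0.9999 over the other alternatives). Icam1, the endothelial ligand of leukocyte integrins, averaged 3.61 ± 3.48 CPM in EAE and 1.66 ± 1.18 CPM in naive, with 1.01 ± 0.64. Cxcr2, the chemokine receptor of neutrophils, had 48 counts in EAE and 1 in naive.

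Of 15 inflammatory output genes listed, 8 were tested in EAE over naive, 4 were higher and 4 lower, with a median log2 fold change of 0.42. In onset over pre 12 were tested, and 11 were higher and 1 lower at onset, with a median of 0.61 and none past the edgeR test. Lcn2, an iron-withholding lipocalin of neutrophils and reactive glia, was at 0.805, 4.92, 0.348 and 2.01 CPM in pre, at 7.94, 0.726, 10.7 and 3.88 CPM at onset and at 1.88 CPM at the peak, against 0, 0.262, 0 and 0.454 CPM in naive. Only pre 3 lay within the naive range. Its log2 fold change in EAE over naive of 3.91 ± 1.08 (SE) had an adjusted p of 0.780 in edgeR. DESeq2 called Lcn2 in onset over naive (log2 fold change 4.83, adjusted p = 0.0307). Lcn2 had 4 counts in naive and passed the count filter only through EAE libraries, so nothing is read from this call. Cxcl10, an interferon-induced chemokine, had 38 counts in EAE and 0 in naive, and Nos2 had 1 count in EAE and 0 in naive. The Cxcl10 counts were 23 in the peak library, 11 in onset 3, 3 in onset 4 and 1 in pre 3.

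S100A8 and S100A9 are known to carry arachidonic acid to the phagocyte oxidase, and the oxidase and arachidonate genes were higher in EAE in 7 of 7 tested members of 10, with a median log2 fold change of 1.04. Ncf1, a cytosolic oxidase subunit, averaged 15.2 ± 7.02 CPM in EAE and 4.91 ± 2.93 CPM in naive (SD, n = 9 and 4), with 1.57 ± 0.43 (SE). Cybb, the membrane catalytic subunit, averaged 4.55 ± 4.53 CPM in EAE and 1.44 ± 0.775 CPM in naive, with 1.61 ± 0.66. Both had an adjusted p of 0.780 in edgeR. When the rod index was added to the fit, Ncf1 passed with an adjusted p of 0.0148 in edgeR, and Cd14 and C5ar1 with 0.0374 and 0.0315, while over the other alternatives these 3 ranged from 0.226 to 0.9999. Microglia also make these oxidase subunits, and their markers moved in the same direction, as given next.

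Microglia markers were higher in EAE in 16 of 16 tested, with a median log2 fold change of 1.21 and none past the test without a covariate. They summed to between 414 and 2028 CPM in EAE and to between 122 and 619 CPM in naive, so the groups overlapped. Aif1, C1qb and C1qa, the members with the smallest p, averaged 6.20 ± 3.59, 75.8 ± 49.3 and 83.6 ± 59.3 CPM in EAE and 1.94 ± 1.17, 21.9 ± 16.9 and 27.9 ± 21.5 CPM in naive. When the rod index was added to the fit their adjusted p was 0.0187, 0.0148 and 0.0154 in edgeR, and over the other alternatives it ranged from 0.390 to 0.9999. The part of microglia in the oxidase, receptor and inducer values was not tested.

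Neutrophil markers other than the calprotectin subunits differed in whether naive libraries held them. Of 24 listed genes, 12 had 0 counts in naive and counts in EAE, and Ctsg had 0 counts everywhere. Between 4 and 10 of the 24 had any count in a naive library, between 11 and 20 in a pre library, between 9 and 21 in an onset library and 19 in the peak library. The list summed to between 150 and 396 CPM in EAE and to between 118 and 339 CPM in naive. Most of that sum was Mmp9, a protease also read in naive retina, with 234 ± 78.6 CPM in EAE and 183 ± 110 CPM in naive. Csf3r, the receptor of the granulocyte growth factor G-CSF, was also read in every naive library, at 1.57 to 13.4 CPM, and at 6.81 to 48.3 CPM in EAE.

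Ngp and Ltf, granule genes of the list, were both at 0 in naive. Ngp, a granule protein, was at 0, 2.46, 0 and 0.502 CPM in pre, at 12.9, 0, 16.4 and 9.78 CPM at onset and at 6.14 CPM at the peak, against 0 in all 4 naive libraries. Ltf, lactoferrin, was at 0.805, 1.97, 0 and 1.51 CPM in pre, at 4.92, 0, 9.88 and 7.30 CPM at onset and at 5.14 CPM at the peak, against 0 in naive. Onset 2, the library with the least S100a8 and S100a9, had 0 counts of both, and also 0 counts of Camp, Mmp8 and Cxcr2. It had 6 counts of Retnlg and 3 of Lcn2, and 9 of the 24 listed genes had a count there. Pre 3, with S100a9 at 8.01 CPM, also had 0 counts of Ngp, Ltf, Camp and Mmp8, but 6 of Cxcr2. Averaged over EAE, Ngp was at least 31.7-fold and Ltf at least 20.8-fold higher than naive. Neither passed in edgeR, while DESeq2 called Ltf in EAE over naive (adjusted p = 0.0447, against 0.200 to 0.9999 over the edgeR fits) and in onset over naive (adjusted p = 0.0065). DESeq2 also called Retnlg, a resistin-like gene of the list, in onset over naive (log2 fold change 6.11, adjusted p = 7.9e-04) and in pre over naive (log2 fold change 5.48, adjusted p = 0.0172). Ltf and Retnlg had 0 naive counts and passed the count filter only through EAE libraries, so nothing is read from these calls.

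Cxcr2 was at 1.01, 1.97, 2.09 and 2.76 CPM in pre, at 1.89, 0, 0.520 and 0.155 CPM at onset and at 0.752 CPM at the peak, against 0, 0, 0 and 0.151 CPM in naive. Unlike Ngp and Ltf it was read in all 4 pre libraries. Of the 24 neutrophil genes 6 had enough counts for the pooled test, and 0 passed it in edgeR.

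Markers of monocytes and macrophages summed to between 36.8 and 176 CPM in EAE and to between 9.10 and 53.1 CPM in naive. Of 14 listed, 4 were tested, 3 were higher and 1 lower, and the median log2 fold change was 1.38. Fcgr1, Lyz2 and Itgam averaged 8.01 ± 4.93, 14.9 ± 10.5 and 37.6 ± 26.2 CPM in EAE and 2.64 ± 2.20, 5.73 ± 4.09 and 13.3 ± 12.95 CPM in naive (SD, n = 9 and 4), and microglia make these transcripts too. Lyz2 and Fcgr1 passed only with the rod index added (adjusted p of 0.0148 and 0.0299 in edgeR, against 0.402 to 0.9999 over the other alternatives). Of genes that mark blood monocytes, Chil3 had 42 counts in EAE and 1 in naive, Ly6c2 had 24 and 2, and Ccr2 had 33 and 14. These are raw sums over 9 EAE and 4 naive libraries, not scaled for depth, so a larger EAE sum alone is no difference in level. Clec4e, Msr1 and Cd209a had 0 counts in naive and 12, 24 and 1 in EAE. The Msr1 counts were 12 in the peak library, 11 in onset 3 and 1 in pre 4.

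Markers of blood, epithelium, vessels and glia were summed as well, and their part in the S100a8 and S100a9 values was not tested. Of 9 red blood cell genes 6 had 0 counts in every library, among them both alpha and both beta globin genes. The members of each pair are near-identical copies, and reads that fit more than 1 place, 5.76% to 7.20% of the reads, are not in the gene counts, so their 0 is uncertain. The list summed to between 48.4 and 64.9 CPM in EAE and to between 58.1 and 61.2 CPM in naive, most of it Bpgm, a glycolytic mutase also read in naive retina, with 46.9 ± 5.96 CPM in EAE and 47.1 ± 6.11 CPM in naive. Alas2, the erythroid enzyme of heme synthesis, had 2 counts in EAE and 0 in naive. Of 13 keratin epithelium genes 6 had 0 counts everywhere, Krt5 and Krt14 included, and the list summed to between 0.780 and 2.79 CPM in EAE and to between 0.718 and 2.20 CPM in naive. T and B cell genes summed to between 6.07 and 31.4 CPM in EAE and to between 11.97 and 20.1 CPM in naive, and platelet genes to between 19.1 and 40.7 CPM in EAE and to between 26.8 and 40.8 CPM in naive. Endothelial genes summed to between 42.6 and 390 CPM in EAE and to between 91.3 and 232 CPM in naive, and Mueller glia genes to between 1903 and 5011 CPM in EAE and to between 2304 and 3572 CPM in naive.

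**Figure D4:**
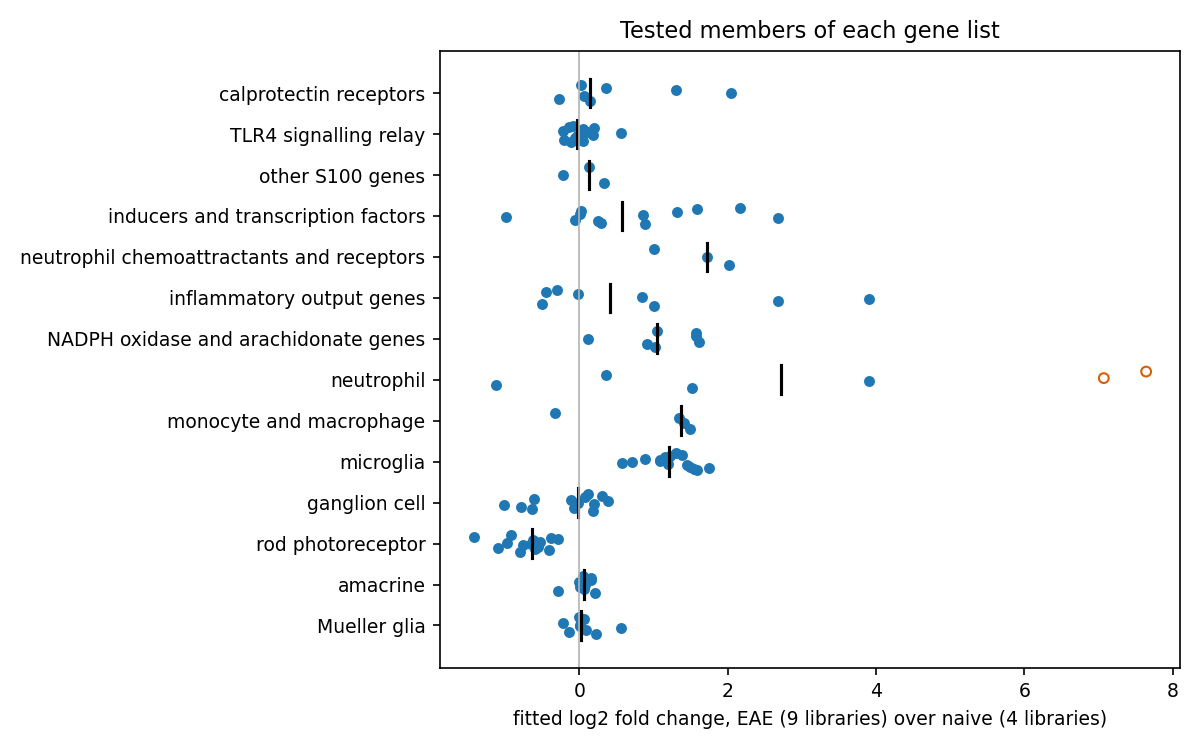
Fitted log2 fold change of EAE (9 libraries) over naive (4 libraries) on the x axis for each tested member of 14 gene lists on the y axis; black bars are list medians, and open points are genes with 0 counts in naive, whose fitted value depends on the prior count. Microglia (median 1.21) and oxidase (1.04) members lie right of 0, rod members (median -0.63) left of it, and the TLR4 relay (-0.03) around it. No member passed edgeR's test. DESeq2 called the neutrophil member Ltf, which had 0 counts in naive, so nothing is read from that call.

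Within the 9 EAE libraries the level of S100a9 was set beside S100a8 and 5 marker lists, 6 relations in all, on the log2 CPM scale with exact two-sided permutation tests adjusted over the 6. S100a9 and S100a8 moved together, with r = 0.983 (exact permutation, adjusted p = 1.41e-04) and Spearman's rho = 0.967 (adjusted p = 0.000992, exact permutation). S100a9 and the mean of the 24 neutrophil genes gave r = 0.976 (exact permutation, adjusted p = 1.41e-04) and rho = 0.950 (adjusted p = 0.00106, exact permutation). Without the 2 libraries farthest from the median on the x axis, r was 0.950 with S100a8 and 0.959 with the neutrophil list. Within stages, after the means of pre and onset were removed, r was 0.984 and 0.986. Libraries with more S100a9 were thus those with more S100a8 and a higher mean log2 CPM of the neutrophil list. The summed CPM of that list, most of it Mmp9, did not follow the order of S100a9. It was 237, 258, 396 and 150 CPM in onset libraries 1 to 4, with S100a9 at 30.6, 4.36, 39.3 and 18.3 CPM. Values read in the same library share its depth and composition.

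The other relations were weaker. With the monocyte and macrophage list r was 0.747 (exact permutation, p = 0.0189, adjusted p = 0.0378) and rho 0.65 (adjusted p = 0.133, exact permutation), and r without the 2 farthest libraries was 0.776. This one did not pass without onset 3 (r = 0.619, adjusted p = 0.208, exact permutation), without onset 2 (r = 0.715, adjusted p = 0.104, exact permutation) or within stages (r = 0.777, adjusted p = 0.0584, exact permutation). With the rod list r was 0.668 (exact permutation, p = 0.0505, adjusted p = 0.0757) and rho 0.433, with r = 0.501 without the 2 farthest libraries. With microglia r was 0.302 (exact permutation, p = 0.427) and rho 0.167, and it was -0.161 without the 2 farthest libraries. With the red blood cell list r was -0.353 (exact permutation, p = 0.349) and rho -0.217, and -0.0219 without the 2 farthest libraries. The differences between these correlations were not tested.

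**Figure D5:**
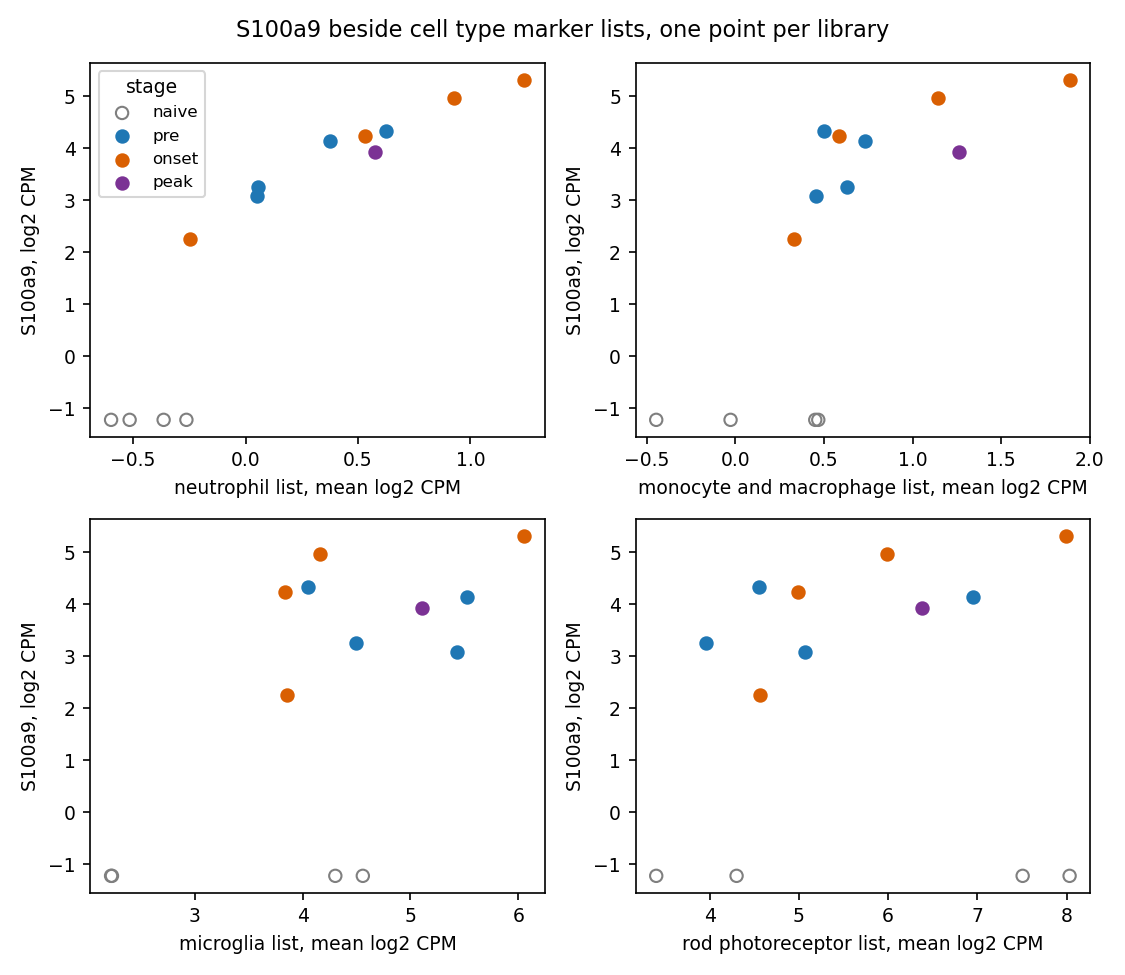
S100a9 in log2 CPM (y axis) against the mean log2 CPM of 4 marker lists (x axes), with 1 point per library and colours for stage; naive libraries, which have 0 counts of S100a9, are open and stay out of the correlations. The 9 EAE libraries line up with the neutrophil list (r = 0.976) and scatter against the microglia list (r = 0.302).

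Of all tested genes with a proper symbol, those most like the mean log2 CPM of both subunits were ranked by Pearson's r as a description, without a p. Over the 9 EAE libraries they were Sowaha (r = 0.927), Lcn2 (0.915), Rab7b (0.912), Ifi27 (0.911), Rsad2 (0.906), Zc3h12a (0.905), Tmcc3 (0.902), Gsr (0.902), Bst1 (0.894) and Ltf (0.887). Most of these were low, and Sowaha for example averaged 2.25 ± 0.670 CPM in EAE and 3.74 ± 1.92 CPM in naive (SD, n = 9 and 4). Gsr encodes glutathione reductase, Rsad2 the antiviral protein viperin and Zc3h12a the RNase regnase-1. Lcn2 and Ltf are the listed neutrophil genes among the 10.

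Over all 13 libraries, where the gap between naive and EAE sets the order, the 10 most alike were Retnlg (r = 0.973), Ifitm1 (0.929), Lcn2 (0.890), Mrps21 (0.885), Zcchc17 (0.882), Hp (0.878), Serpine2 (0.865), Ltf (0.854), Mmp8 (0.845) and Cmpk2 (0.842). Hp encodes haptoglobin, which neutrophils and liver make, and it had 65 counts in EAE and 1 in naive. Serpine2, a protease inhibitor of glia and neurons, averaged 42.4 ± 10.4 CPM in EAE and 21.96 ± 2.93 CPM in naive. Mrps21, a mitochondrial ribosomal protein, averaged 18.2 ± 1.55 CPM in EAE and 14.2 ± 1.35 CPM in naive, so abundant genes of the retina itself also stood in this ranking. Retnlg, Lcn2, Ltf and Mmp8 are the 4 listed neutrophil genes among the 10, and Lcn2 and Ltf were in both rankings.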

How the data were processed

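The authors deposited 1 table of raw counts per gene symbol for the whole series, and the submitters' processing notes list HTSeq, HISAT2, cutadapt and DESeq2, with no settings. Build, annotation and strandedness of the counting are not given in the sources used here. Library columns were matched to samples by their titles. Between 22.8% and 27.6% of reads were assigned to no counted feature and were left out of library sizes. Counts were scaled by TMM and tested with edgeR 4.0.16 in R 4.3.3 (filterByExpr by group, minimum count of 10, robust quasi-likelihood fit over all 13 libraries, adjusted p threshold of 0.05). The pooled comparison of EAE with naive was a fit of its own with 13639 genes. The spread of the peak stage, with 1 library, was taken from the other groups. Log2 CPM used a prior count of 2. Exon lengths came from GENCODE M21, and 39350 symbols (96.4%) were found in RefSeq. The test was checked on simulated data.

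The members, the 19 gene lists, the tests and the alternatives were chosen with earlier results of these data known. Per list, the 3 tested members with the smallest p in EAE over naive were named, apart from a gene that is not reported here, and genes outside this rule are said to be so or given by their counts. Alternatives were DESeq2 1.42.0, other scaling, no filter, fewer libraries, the replicate number as a block and the rod index as a covariate. Leaving out the 4 libraries with the highest rod index, the length of the principal transcript and the relations without onset 2 or 3 were alternatives chosen after seeing the data. Same-numbered pre and naive libraries deviated together (r = 0.188 to 0.289 across genes, 3 pairs), with numbers read from titles only. Whether the numbers mark pairs or batches is not known. The main fits used group only, and the replicate block was an alternative. No pair of replicates agreed within sampling noise (chi-square per degree of freedom of at least 3.65).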

Additional observations from a re-analysis of the deposited data

Results flagged for a closer look

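In 27 sets of values over 4 libraries, the gap of the highest or lowest library to its neighbour was set against the range of the group, a rule by which chance flags about 1 in 20 groups. It marked 3 summed marker levels, all in the library onset 3, which is also the library with the most S100a8 and S100a9. The microglia list summed to 2028 CPM in onset 3 and to between 414 and 488 CPM in the other onset libraries. The monocyte and macrophage list summed to 176 CPM there and to between 36.8 and 56.3 CPM in the others. The calprotectin receptor list summed to 926 CPM there and to between 865 and 872 CPM in the others. That receptor sum lay inside the naive range of 786 to 945 CPM and below the 934 CPM of the peak library. Onset 3 also had the second highest rod index of all 13 libraries (8.00 log2 CPM, after naive 5 with 8.03). The part of these levels in the S100a8 and S100a9 values was not tested, and both values are given without onset 3 beside the comparison of onset with pre.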

How the results depend on the processing

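The log2 fold change of onset over pre ran from 0.25 to 1.10 for S100a9 and from 0.34 to 1.45 for S100a8 over all alternatives, and the adjusted p where edgeR gave one from 0.511 to 0.984. The share difference ran from -0.838 to 5.11 percentage points when single libraries were left out. With the replicate block the log2 fold change of onset over pre was 0.57 for S100a9 and 0.80 for S100a8, and the share difference was 1.51. Same-numbered onset and pre libraries gave r of mixed sign, at -0.197, 0.250, 0.172 and -0.393 for numbers 1 to 4. The block changed no call. The microglia relation ran from -0.0378 to 0.0559 without onset 3 or onset 2, and the monocyte and macrophage relation ran from 0.619 to 0.715 without onset 3 or onset 2 and was 0.777 within stages, no longer past the threshold; the cause was not tested.

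Counts of called genes moved most with the tool and with the rod index. For EAE over naive edgeR called 0, with no filter 1 and with the rod index as covariate 55. Leaving out single libraries gave 0 to 1 in edgeR. DESeq2, run only on all libraries, called 4. For pre over naive the covariate gave 95 and DESeq2 6. For onset over naive the covariate gave 1, edgeR without single libraries 0 to 1, and DESeq2 on all libraries 16. For onset over pre DESeq2 gave 23. Of the 27 list genes that met the naming rule 11 passed under an alternative, 10 with the covariate and Ltf under DESeq2, and 3 changed sign. These were S100a1 (-0.14 without the rod-rich libraries), S100a16 (-0.44 with the replicate block, -0.25 without the rod-rich libraries, and -0.34 to 0.28 when single libraries were left out) and S100a10 (-0.58 to 0.28 when single libraries were left out, 0.28 without naive 2). With 3 counts equal to 0.376 to 1.13 CPM per library, most chemokine and monocyte genes lay near the limit of detection.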
